A study of Mus musculus with 9 samples.

Results

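The genes described here are the 3 D-type cyclins (Ccnd1, Ccnd2 and Ccnd3) and the 7 inhibitors of cyclin-dependent kinases (Cdkn1a, Cdkn1b, Cdkn1c, Cdkn2a, Cdkn2b, Cdkn2c and Cdkn2d). They were taken by name from a table of 55450 genes, and all 10 were among the 19357 genes that passed the filter on low counts. RNA was sequenced from EYFP-positive mammary cells of adult nulliparous mice, which were sorted 7 days after the last of 5 doses of 2 mg of tamoxifen. Mice of all 3 genotypes carried K8CreERT2, a tamoxifen-activated Cre driven by the promoter of the luminal keratin gene Krt8, and lsl-EYFP, a reporter that Cre switches on, so the EYFP gate collects recombined luminal cells and whatever they gave rise to. Control mice had no floxed gene, LATS1/2-KO mice had floxed Lats1 and Lats2, and LATS1/2-Sox9-KO mice had floxed Lats1, Lats2 and Sox9. Each genotype had 3 libraries, with 44167762 to 47003587 counts in control, 50508666 to 61745346 in LATS1/2-KO and 55503365 to 61967651 in LATS1/2-Sox9-KO. The labels number the libraries of a genotype as replicates without naming the animals, so the p-values measure the spread between these libraries, which may be technical.

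Proliferation in G1 phase is controlled by D-type cyclins, which activate the kinases CDK4 and CDK6. These kinases phosphorylate the retinoblastoma family of pocket proteins and so release E2F transcription factors, which switch on the genes of S phase. The INK4 inhibitors (Cdkn2a, Cdkn2b, Cdkn2c and Cdkn2d) bind CDK4 and CDK6 and keep D-type cyclins off them, whereas the CIP/KIP inhibitors (Cdkn1a, Cdkn1b and Cdkn1c) bind complete cyclin-kinase complexes and are best known for blocking CDK2. Cyclin D1 is known for its need in the growth of the mammary epithelium during pregnancy, and Cdkn2a and Cdkn2b lie side by side in a locus that is known for its activation in cells under oncogenic stress. LATS1 and LATS2 are kinases of the Hippo pathway that restrain the coactivators YAP and TAZ, which act through TEAD factors.

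The targeted genes were examined first. Lats1 had normalized counts (counts scaled to one common library size) of 5672, 5929 and 5940.4 in control, 2090.1, 1923 and 2336 in LATS1/2-KO and 2058, 1844 and 1709 in LATS1/2-Sox9-KO. All 6 libraries of the floxed genotypes were below all control libraries, with a log2 fold change of -1.47 ± 0.11 (SE, adjusted p = 7.07e-06) in LATS1/2-KO and -1.64 ± 0.11 (SE, adjusted p = 2.8e-06) in LATS1/2-Sox9-KO. Lats2 had normalized counts of 1039, 865 and 1219.7 in control, 1256, 1434 and 1723 in LATS1/2-KO and 1957, 1580.4 and 1239.7 in LATS1/2-Sox9-KO, so that all 6 libraries of the floxed genotypes were above those of control. Its log2 fold change was 0.50 in LATS1/2-KO, which did not pass the test but did in 9 of 20 alternative settings, and 0.61 in LATS1/2-Sox9-KO, which passed. The gene-level count of Lats2 was thus not lower, and such a count cannot show whether the floxed exons were deleted. The authors state that sequencing of the sorted cells showed the genetic alterations of the mouse models. Sox9 had normalized counts of 23313, 19948 and 21534 in control, 7205, 9506 and 12433 in LATS1/2-KO and 8812, 6756 and 6459.8 in LATS1/2-Sox9-KO, with lower values in both floxed genotypes and overlapping values between them. Its log2 fold change of LATS1/2-Sox9-KO against LATS1/2-KO was -0.40 ± 0.19 (SE, adjusted p = 0.25). These counts cover whole genes and the floxed exons were not examined, so the groups are named below as the libraries are labelled. Krt18, the most abundant of 11 luminal markers, had normalized counts of 239706, 247482 and 257940.0 in control, 384348, 428714 and 406769 in LATS1/2-KO and 789495, 718520.0 and 638918 in LATS1/2-Sox9-KO, which placed a luminal keratin at a high level in every library. Of the 11 luminal markers, however, the keratin genes Krt8 and Krt18 were the 2 that were higher than control in LATS1/2-KO, while 5 were lower (Krt19, Epcam, Esr1, Pgr and Prlr), and in LATS1/2-Sox9-KO 3 were higher and 6 lower. The LATS1/2-KO shares were 18.2% higher and 45.5% lower, beside 28.7% and 27.1% of all genes tested. Those in LATS1/2-Sox9-KO were 27.3% and 54.5%, beside 29.3% and 28.7%.

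The regions upstream of 3 inhibitor genes are shown first, since they are those of the adjacent genes with the largest increases and of the inhibitor that is the classical target of p53. Of the 10 genes, 7 had an entry in the RefSeq table of start sites (GRCm38.p6), with 11 starts in all, and the 250 bases before each start were searched on both strands. Letters that fall in an exon of the GENCODE annotation were left out of the printed sequences, which read 5′ to 3′ on the gene's own strand. Capitals mark a p53 motif, here a pair of abutting decamers of the p53 consensus with at most 1 of the 20 bases off it.
Cdkn1a, upstream start, chr17:29090729-29090975, plus strand: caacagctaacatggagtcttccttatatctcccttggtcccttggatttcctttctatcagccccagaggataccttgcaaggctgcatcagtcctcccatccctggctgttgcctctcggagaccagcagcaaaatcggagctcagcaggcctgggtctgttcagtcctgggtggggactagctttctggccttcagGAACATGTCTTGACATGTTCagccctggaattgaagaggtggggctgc
Cdkn2a, upstream start (the first exon of p19ARF), chr4:89294654-89294869, minus strand: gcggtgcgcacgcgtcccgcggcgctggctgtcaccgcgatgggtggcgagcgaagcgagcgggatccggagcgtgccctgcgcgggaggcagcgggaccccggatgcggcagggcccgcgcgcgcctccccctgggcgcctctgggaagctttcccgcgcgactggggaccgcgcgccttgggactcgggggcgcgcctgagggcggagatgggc
Cdkn2a, downstream start (the first exon of p16INK4a), chr4:89282193-89282442, minus strand: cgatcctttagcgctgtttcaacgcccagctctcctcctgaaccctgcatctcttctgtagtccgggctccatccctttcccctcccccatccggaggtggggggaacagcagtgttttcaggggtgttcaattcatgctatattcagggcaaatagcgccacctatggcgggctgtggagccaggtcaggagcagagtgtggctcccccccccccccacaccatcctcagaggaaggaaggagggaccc
Cdkn2b, chr4:89311040-89311282, minus strand: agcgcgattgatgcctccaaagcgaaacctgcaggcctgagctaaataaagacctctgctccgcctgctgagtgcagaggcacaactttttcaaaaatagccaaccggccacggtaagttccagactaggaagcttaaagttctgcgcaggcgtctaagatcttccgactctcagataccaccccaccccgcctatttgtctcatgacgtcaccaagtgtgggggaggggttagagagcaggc
The p53 motif of Cdkn1a began 51 bases before its upstream start, and 25 of the 32851 promoters in the table (0.0761%) held such a motif in the same window. The mismatch was allowed after the sequences were seen, so this share does not measure how unusual the motif of Cdkn1a is. A TEAD motif (GGAATG), held by 12.6% of all promoters, was found 17 bases before the downstream start of Ccnd3, and a FOXO motif (GTAAACA), held by 3.17%, was found 243 bases before its upstream start. The E2F motif searched (GGCGGGAA), held by 1.86% of promoters, and the AP-1 motif (TGANTCA, where N is any base), held by 6.75%, were in none of the 11 windows. None of these letters was found in the windows of Cdkn2a and Cdkn2b, which differed in base composition, with 78.4% G and C before the p19ARF start, 60% before the p16INK4a start and 53.6% before Cdkn2b. No window held more than 1 motif, so no motif overlapped another.

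In LATS1/2-KO libraries, 5 of the 10 genes were higher than in control (Ccnd2, Cdkn1c, Cdkn2a, Cdkn2b and Cdkn2c), 1 was lower (Ccnd3) and 4 did not pass the test (Ccnd1, Cdkn1a, Cdkn1b and Cdkn2d). These calls were made at an adjusted p of at most 0.05, and of all genes tested 28.7% were higher and 27.1% lower by the same rule, so a count of 1 lower gene stands below the background share and a count of 5 higher genes above it. All 5 increases were also past 2-fold, as were 17.1% of all genes tested. The same 6 genes were those whose LATS1/2-KO libraries did not overlap control, which held for 31.3% of all genes upwards and 30.3% downwards. The median log2 fold change of the 10 genes was 0.79, against 0.04 for all genes. In LATS1/2-Sox9-KO libraries, 7 genes were higher than in control, where Ccnd1 and Cdkn1a joined the same 5, and Ccnd3 was again lower. The background shares were 29.3% higher and 28.7% lower in that comparison, 4 of the 7 increases were past 2-fold (17.8% of all genes), and the median log2 fold change was 0.90 against 0.01 for all genes. These 8 genes were again those without overlap between the libraries, beside 34.9% of all genes upwards and 33.8% downwards. Both comparisons use the same control libraries. Because the cells were profiled in bulk, a change in the number of cells of a type and a change in the RNA per cell cannot be told apart.

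**Figure D1:**
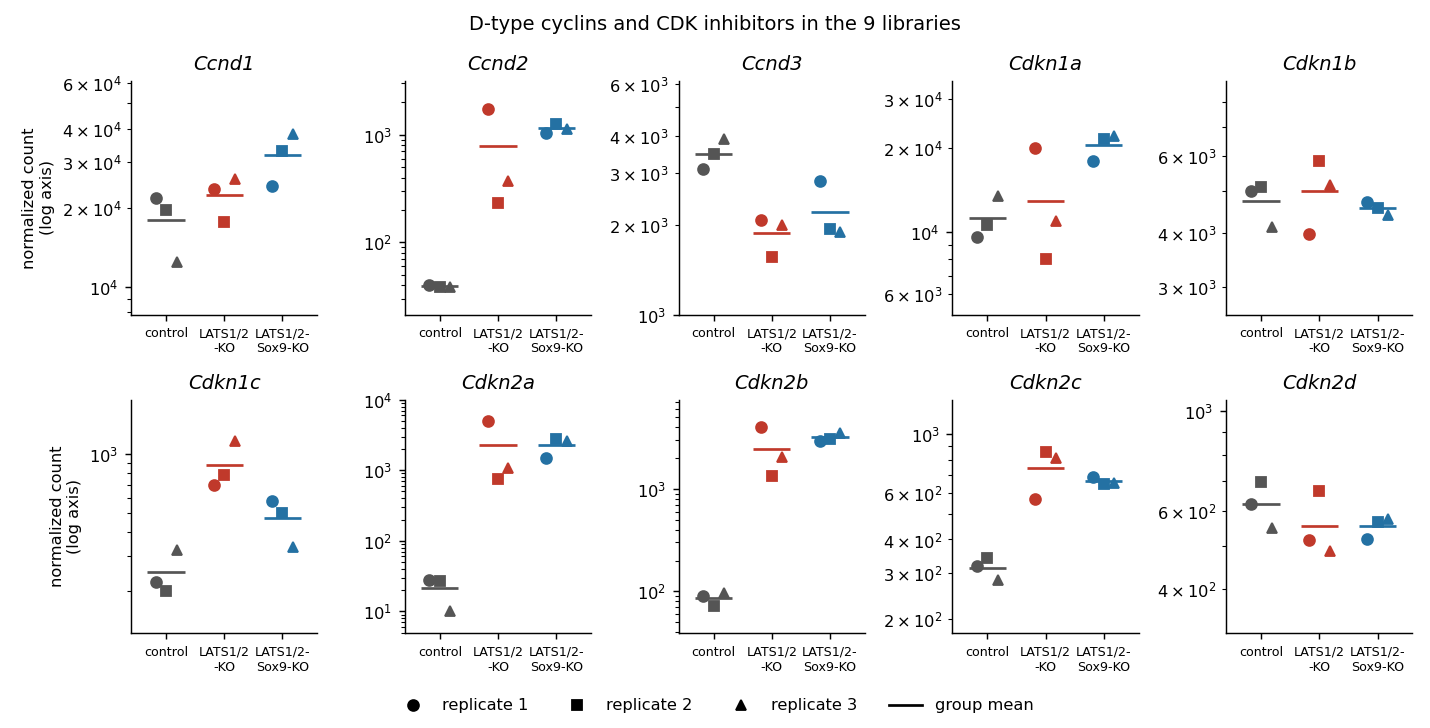
Normalized counts of the 10 genes in each of the 9 libraries (log axes that differ between panels), with a symbol for each replicate number and a line at the mean of each genotype. Cdkn2a, Cdkn2b and Ccnd2 lie far above control in all 6 libraries of the floxed genotypes, and LATS1/2-KO replicate 1 is the highest library of its genotype for these 3 genes and for Cdkn1a.

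Among the D-type cyclins, the 3 genes behaved differently. Ccnd1 (chr7:144929931-144939925, minus strand), the main D-type cyclin of the mammary epithelium, had normalized counts of 21733, 19631 and 12428 in control, 23611, 17663 and 25779 in LATS1/2-KO and 24243, 32843 and 38356 in LATS1/2-Sox9-KO. The libraries of LATS1/2-KO overlapped those of control, whereas all LATS1/2-Sox9-KO libraries were above all control libraries. Its log2 fold change was 0.32 ± 0.24 (SE, adjusted p = 0.28) in LATS1/2-KO, with a 95% interval (from the standard error and the degrees of freedom of the test) of -0.21 to 0.84, and 0.83 ± 0.24 (SE, adjusted p = 0.0128) in LATS1/2-Sox9-KO.

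Ccnd2 (chr6:127125162-127152193, minus strand), a D-type cyclin known for its roles in the ovary and in B cells, had normalized counts of 40.6, 38.6 and 38.6 in control, 1737, 231 and 371 in LATS1/2-KO and 1041, 1248 and 1141 in LATS1/2-Sox9-KO. Control libraries were nearly alike, while the LATS1/2-KO libraries spread widely around a far higher level with replicate 1 on top, and the LATS1/2-Sox9-KO libraries lay close together. The increase on the log2 scale was 4.31 ± 0.70 (SE, adjusted p = 0.000547) in LATS1/2-KO, or 19.8-fold, and 4.86 ± 0.72 (SE, adjusted p = 0.000251) in LATS1/2-Sox9-KO, or 29.0-fold. Without LATS1/2-KO replicate 1, the log2 fold change of LATS1/2-KO against control was 2.94 (adjusted p = 1.63e-05).

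Ccnd3 (chr17:47505051-47599691, plus strand), known for its roles in lymphocytes and in differentiated cells, had normalized counts of 3089.9, 3472 and 3897 in control, 2081, 1568 and 2004 in LATS1/2-KO and 2828, 1947 and 1897 in LATS1/2-Sox9-KO. Every library of both floxed genotypes was below every control library, with a log2 fold change of -0.89 ± 0.18 (SE, adjusted p = 0.00219) in LATS1/2-KO and -0.65 ± 0.18 (SE, adjusted p = 0.0112) in LATS1/2-Sox9-KO. With a correction of the counts for gene GC content, the first value was -0.44 (adjusted p = 0.0336) and the second was -0.28 and no longer passed the test. The second call was also lost when LATS1/2-Sox9-KO replicate 2 (-0.54) or replicate 3 (-0.53) was left out. Exons of Ccnd3 share 361 bases with Bysl on the opposite strand, and exons of Ccnd1 share 1100 bases with LTO1. The library kit named by the authors is not described as marking strand, while their counting is described as same strand. Reads over these bases may therefore not be assigned to the right gene of the pair, which was not tested.

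Both kinase partners of the D-type cyclins were higher in both floxed genotypes. Cdk4 had normalized counts of 6195, 6516 and 5792 in control, 10964, 9029 and 9885 in LATS1/2-KO and 8758, 9065 and 9463 in LATS1/2-Sox9-KO, and Cdk6 had 2586, 2641 and 1549.5 in control, 7302, 4953 and 6312 in LATS1/2-KO and 7180.3, 7646 and 8321 in LATS1/2-Sox9-KO. For both genes every library of the floxed genotypes was above every control library. The log2 fold change in LATS1/2-KO was 0.69 ± 0.10 (SE, adjusted p = 0.000301) for Cdk4 and 1.45 ± 0.21 (SE, adjusted p = 0.00026) for Cdk6.

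The INK4 inhibitors showed the largest changes, and they fell into a pair with very large increases, 1 gene with a moderate increase and 1 that did not pass the test. Cdkn2a (chr4:89274471-89294653, minus strand) encodes p16INK4a and, from another first exon and reading frame, p19ARF, which holds back the p53 antagonist MDM2. It had normalized counts of 27.8, 27.2 and 9.96 in control, 4914, 749.8 and 1079 in LATS1/2-KO and 1469, 2745 and 2579.5 in LATS1/2-Sox9-KO, from 24, 24 and 8 counts as deposited in control. Cdkn2a was near the floor of detection in control and abundant in all 6 libraries of the floxed genotypes, with LATS1/2-KO replicate 1 the highest of all. The log2 fold change was 6.68 ± 0.83 (SE, adjusted p = 0.000104) in LATS1/2-KO, or 102-fold, and 6.69 ± 0.83 (SE, adjusted p = 8.65e-05) in LATS1/2-Sox9-KO, or 103-fold. Without LATS1/2-KO replicate 1 the first value was 5.38 (adjusted p = 1.47e-05), and with a replicate block and a correction for gene GC content the second was 7.47 (adjusted p = 0.000184). Gene-level counts add both transcripts of Cdkn2a together, so p16INK4a and p19ARF cannot be told apart here.

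Cdkn2b (chr4:89306299-89311039, minus strand) encodes p15INK4b, known as a target of TGF-beta signalling, and lies 11645 bases from Cdkn2a. It had normalized counts of 89.3, 71.4 and 95.8 in control, 4059, 1330.2 and 2027 in LATS1/2-KO and 2905, 3082 and 3542 in LATS1/2-Sox9-KO. As with its neighbour, no library of either floxed genotype came near the control libraries. The log2 fold change was 4.85 ± 0.40 (SE, adjusted p = 9.15e-06) in LATS1/2-KO, or 28.9-fold, and 5.21 ± 0.40 (SE, adjusted p = 4.71e-06) in LATS1/2-Sox9-KO, or 37.1-fold. In the order of the 3 LATS1/2-KO libraries Cdkn2a and Cdkn2b agreed, with replicate 1 highest and replicate 2 lowest, and Ccnd2 and Cdkn1a followed that order too.

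Cdkn2c (chr4:109660876-109667189, minus strand), which encodes p18INK4c and is known for restraining luminal progenitor growth, had normalized counts of 318, 340.2 and 280.0 in control, 572, 854 and 814 in LATS1/2-KO and 689, 649.7 and 655 in LATS1/2-Sox9-KO. All 6 libraries of the floxed genotypes were above control, and here LATS1/2-KO replicate 1 was the lowest of its genotype. On the log2 scale it changed by 1.25 ± 0.19 (SE, adjusted p = 0.000293) in LATS1/2-KO and 1.09 ± 0.18 (SE, adjusted p = 0.00063) in LATS1/2-Sox9-KO. Cdkn2d (chr9:21288410-21291407, minus strand), which encodes p19INK4d, had normalized counts of 622, 696 and 549 in control, 515, 663 and 487 in LATS1/2-KO and 519, 567 and 576 in LATS1/2-Sox9-KO. The 3 genotypes overlapped, and neither the log2 fold change in LATS1/2-KO, -0.17 ± 0.17 (SE, adjusted p = 0.445), nor that in LATS1/2-Sox9-KO, -0.17 ± 0.17 (SE, adjusted p = 0.43), passed the test. Their 95% intervals were -0.55 to 0.22 and -0.55 to 0.22.

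Of the CIP/KIP inhibitors, only Cdkn1c passed the test in LATS1/2-KO. Cdkn1c (chr7:143458339-143461050, minus strand), an imprinted gene that encodes p57KIP2 and is known for cell cycle exit in development, had normalized counts of 223, 198 and 324 in control, 697, 779 and 1165 in LATS1/2-KO and 579, 498 and 333 in LATS1/2-Sox9-KO. The 3 genotypes did not overlap, with control lowest, LATS1/2-KO highest and LATS1/2-Sox9-KO between them, although LATS1/2-Sox9-KO replicate 3 was close to control replicate 3. The log2 fold change was 1.83 ± 0.29 (SE, adjusted p = 0.000485) in LATS1/2-KO and 0.92 ± 0.29 (SE, adjusted p = 0.019) in LATS1/2-Sox9-KO. The call in LATS1/2-Sox9-KO was lost without control replicate 1 (0.85, adjusted p = 0.0627), control replicate 2 (0.78, adjusted p = 0.0729) or LATS1/2-Sox9-KO replicate 1 (0.76, adjusted p = 0.0621).

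Cdkn1a (chr17:29090976-29100727, plus strand), which encodes p21CIP1 and carries the p53 motif shown above, had normalized counts of 9639.6, 10592 and 13490.0 in control, 19965, 7994 and 10954 in LATS1/2-KO and 18011, 21623 and 22043 in LATS1/2-Sox9-KO. LATS1/2-KO replicate 1 stood with the LATS1/2-Sox9-KO libraries, whereas replicates 2 and 3 lay among or below the control libraries. The log2 fold change in LATS1/2-KO was 0.21 ± 0.28 (SE, adjusted p = 0.566), with a 95% interval of -0.43 to 0.84, and was -0.24 without replicate 1. In LATS1/2-Sox9-KO, Cdkn1a was above control in every library, at 0.87 ± 0.29 (SE, adjusted p = 0.0244). This call was lost without control replicate 1 (0.77), control replicate 2 (0.83), LATS1/2-Sox9-KO replicate 2 (0.86) or replicate 3 (0.83), with adjusted p from 0.0551 to 0.0804.

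Cdkn1b (chr6:134920401-134925513, plus strand) encodes p27KIP1, which is controlled mainly through its degradation. It had normalized counts of 4980.4, 5096 and 4134 in control, 3966, 5838 and 5151 in LATS1/2-KO and 4716, 4559.7 and 4390.3 in LATS1/2-Sox9-KO. All 3 genotypes overlapped, and the log2 fold changes were 0.07 ± 0.15 (SE, adjusted p = 0.693) in LATS1/2-KO and -0.06 ± 0.15 (SE, adjusted p = 0.76) in LATS1/2-Sox9-KO. The 95% intervals were -0.25 to 0.40 and -0.38 to 0.27.

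**Figure D2:**
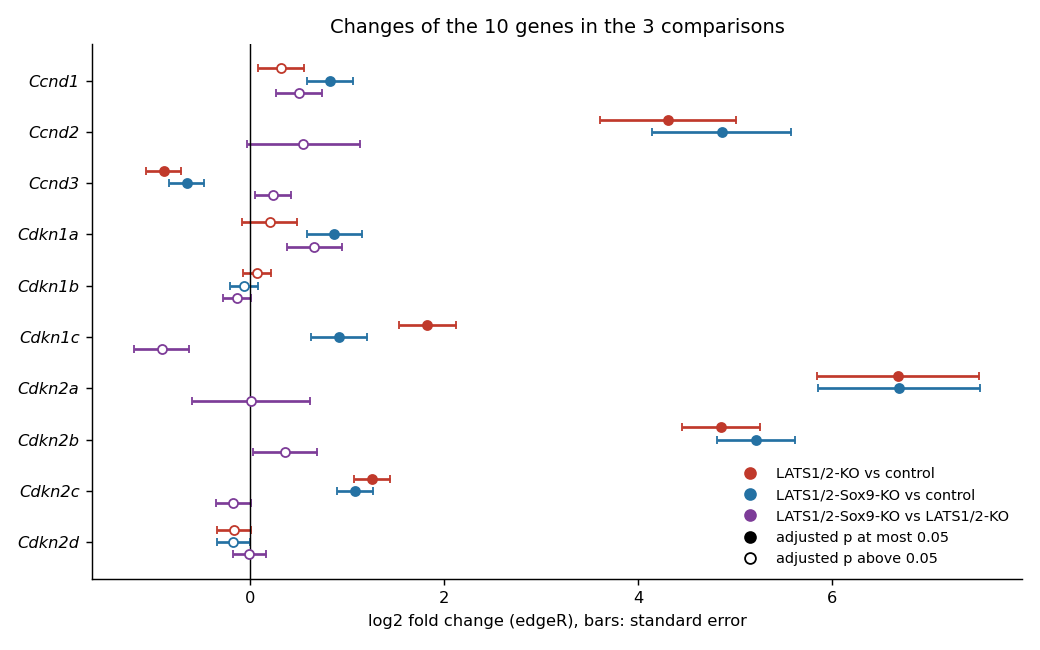
Log2 fold change (horizontal axis, bars of 1 standard error) of the 10 genes in the 3 comparisons, with filled symbols where the adjusted p was at most 0.05. Cdkn2a at 6.68 and 6.69, Cdkn2b at 4.85 and 5.21 and Ccnd2 at 4.31 and 4.86 lie far from 0 in both control comparisons, and no symbol of LATS1/2-Sox9-KO against LATS1/2-KO is filled.

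Levels were compared between genes per length, as normalized counts per kb of exon. In control, Ccnd1 stood at 3808 ± 1036 (SD, n = 3), Cdkn1a at 3164 ± 564 and Cdkn1b at 1041 ± 115. They were followed by Ccnd3 at 397 ± 46, Cdkn2d at 395 ± 46.8, Cdkn1c at 122 ± 32.5 and Cdkn2c at 116 ± 11.3. Cdkn2b at 61.5 ± 9.08, Cdkn2a at 18.5 ± 8.66 and Ccnd2 at 4.17 ± 0.124 were the least abundant. Neighbours in this order overlapped between libraries for Ccnd1 and Cdkn1a, for Ccnd3 and Cdkn2d, and for Cdkn1c and Cdkn2c, and the other neighbours did not overlap. With the length of the longest transcript in place of all exons, the mean of Cdkn1a stood above that of Ccnd1 in all 3 genotypes (5404 against 4794 in control), and that of Cdkn2a above Cdkn2b in LATS1/2-Sox9-KO. With that length Ccnd3 came to 904 ± 105 (SD, n = 3) in control, above all Cdkn2d libraries, and to 488 ± 71.7 in LATS1/2-KO and 576 ± 136 in LATS1/2-Sox9-KO, next below Cdkn1b in the order of means in each genotype.

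In LATS1/2-KO the order began with Ccnd1 at 4746 ± 892 and Cdkn1a at 3651 ± 1755 normalized counts per kb, and Cdkn2a at 1918 ± 1975 and Cdkn2b at 1779 ± 1019.9 came next, ahead of Cdkn1b at 1095 ± 208. Each of the first 4 overlapped the gene after it, and Cdkn1b did not overlap Cdkn1c, which followed. The place of Cdkn2a rested on replicate 1, with 4193, 639.8 and 921 normalized counts per kb in the 3 LATS1/2-KO libraries against 2920.0, 957 and 1459 for Cdkn2b and 871, 1282 and 1132 for Cdkn1b, so that Cdkn2a was below both in replicates 2 and 3. In LATS1/2-Sox9-KO the order was Ccnd1 at 6756 ± 1510.4, Cdkn1a at 5786 ± 624, Cdkn2b at 2285 ± 237, Cdkn2a at 1932 ± 592 and Cdkn1b at 1001 ± 35.8. There Ccnd1 overlapped Cdkn1a, and Cdkn2b overlapped Cdkn2a. Ccnd2 was the least abundant of the 10 genes in all 3 genotypes, at 82.9 ± 88.4 in LATS1/2-KO and 121 ± 11 in LATS1/2-Sox9-KO, despite its large fold change.

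Within each family, the makeup of the transcript pool therefore changed to differing degrees. Ccnd1 made up 89.9 ± 3.87% (SD, n = 3) of D-type cyclin transcripts per kb in control, 94.1 ± 1.67% in LATS1/2-KO and 94.5 ± 1.98% in LATS1/2-Sox9-KO. Ccnd3 made up 10 ± 3.84%, 4.29 ± 0.28% and 3.78 ± 1.74%, and Ccnd2 0.103 ± 0.0258%, 1.57 ± 1.58% and 1.74 ± 0.282%. With the longest transcript as the length, the shares of Ccnd3 were 16.7, 7.46 and 6.58%. Ccnd1 thus remained the bulk of D-type cyclin mRNA in every library. Among the INK4 genes, Cdkn2d was the main transcript in control with 66.7 ± 1.74% and fell to 10.9 ± 6.9% and 7.4 ± 0.864%, while its own level did not pass the test for a change. Cdkn2a and Cdkn2b together took its place, with Cdkn2a rising from 3.05 ± 1.27% to 37.7 ± 14.9% and 39.4 ± 6.89%, and Cdkn2b from 10.6 ± 2.51% to 42.6 ± 5.49% and 47.9 ± 5.12%. The share of Cdkn2a includes any p19ARF transcript, which does not encode an INK4 inhibitor.

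The summed INK4 level was 601, 644 and 530.4 normalized counts per kb in the control libraries, 7653, 2336 and 2991 in LATS1/2-KO and 3929, 5162 and 5359 in LATS1/2-Sox9-KO. Set against the summed D-type cyclins, this was a ratio of 0.121, 0.141 and 0.172 in control, 1.41, 0.591 and 0.521 in LATS1/2-KO and 0.704, 0.704 and 0.632 in LATS1/2-Sox9-KO. Transcripts of the INK4 genes were thus higher relative to D-type cyclin transcripts in every library of the floxed genotypes, and exceeded them in LATS1/2-KO replicate 1 alone. These sums count every Cdkn2a transcript, although p19ARF, which is not an INK4 inhibitor, could not be separated from p16INK4a. In LATS1/2-KO replicate 1, Cdkn2a made up 4193 of the 7653, so the excess there depends on how much of it was p16INK4a. With 3 libraries against 3, an exact permutation test of these ratios cannot go below a two-sided p of 0.1, and none is given. The sum of all 7 inhibitors per D-type cyclin was 0.909, 1.06 and 1.75 in control, 2.66, 1.58 and 1.35 in LATS1/2-KO and 1.85, 1.7 and 1.5 in LATS1/2-Sox9-KO, and there the genotypes overlapped.

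**Figure D3:**
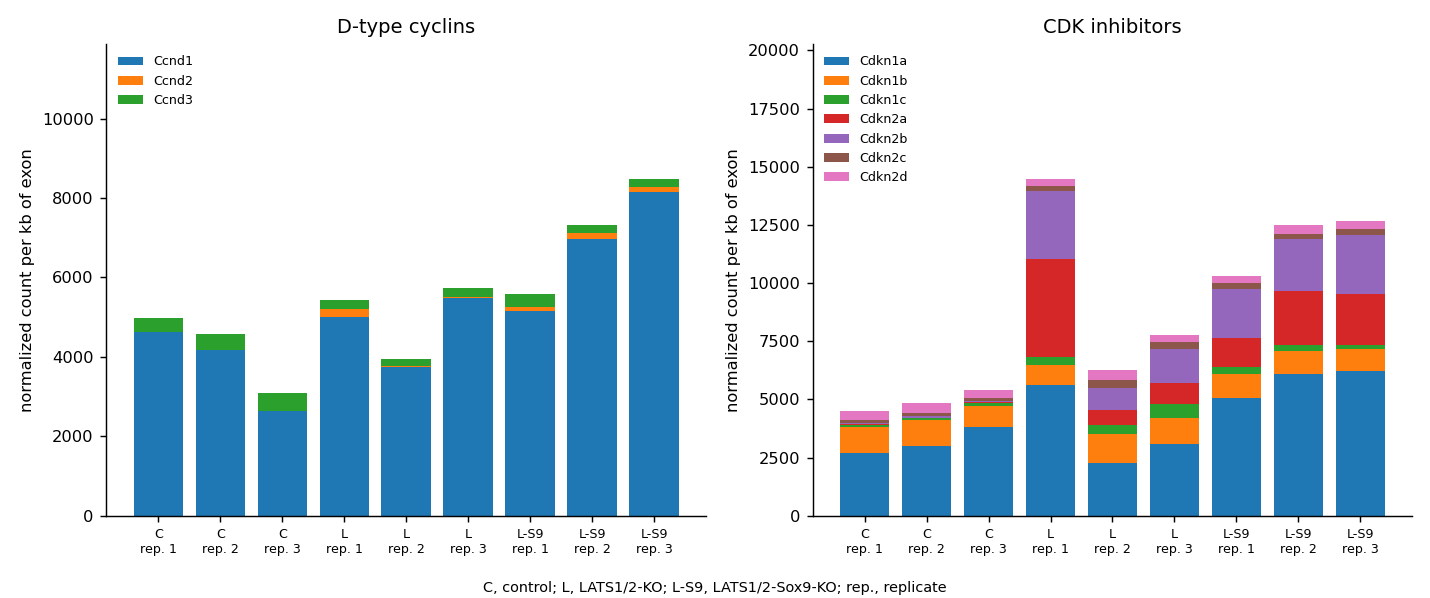
Stacked levels of the D-type cyclins (left) and of the CDK inhibitors (right) in each library, in normalized counts per kb of exon on linear axes that start at 0. The summed INK4 part of the inhibitors (all Cdkn2a transcripts included) lies between 530 and 644 in control and between 2336 and 7653 in the 6 libraries of the floxed genotypes, whereas Ccnd1 is the bulk of the cyclins in all 9.

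Downstream of the D-type cyclins, the pocket proteins moved in opposite directions. Rb1, the retinoblastoma gene, had normalized counts of 8977, 8829 and 4864 in control, 3910.4, 4972 and 4084 in LATS1/2-KO and 1998, 2032 and 2233 in LATS1/2-Sox9-KO, and Rbl2, which encodes p130, had 2611, 3266 and 3528 in control, 1919, 1615 and 1523 in LATS1/2-KO and 904, 1147 and 1192 in LATS1/2-Sox9-KO. Both were lower in LATS1/2-KO, with log2 fold changes of -0.81 ± 0.21 (SE, adjusted p = 0.00854) and -0.90 ± 0.16 (SE, adjusted p = 0.000982), and lower again in LATS1/2-Sox9-KO, although for Rb1 the LATS1/2-KO libraries overlapped control through control replicate 3. The difference of LATS1/2-Sox9-KO from LATS1/2-KO itself passed the test for both, at -1.05 ± 0.21 (SE, adjusted p = 0.0218) for Rb1 and -0.64 ± 0.16 (SE, adjusted p = 0.0453) for Rbl2, in a comparison in which 3.13% of all genes were higher and 3.33% lower. The call for Rb1 was lost in 5 of 20 alternative settings, when LATS1/2-KO replicate 2 or 3 or any LATS1/2-Sox9-KO library was left out (-1.09 to -0.91, adjusted p from 0.0581 to 0.0974). The call for Rbl2 was lost in 10 of 20, among them the replicate block (-0.66, adjusted p = 0.0687), a fit of these 2 groups alone (-0.65, adjusted p = 0.0613) and the removal of control replicate 2 or of any library of the floxed genotypes (-0.71 to -0.50, adjusted p from 0.0739 to 0.143). Rbl1, which encodes p107 and is itself a target of E2F, was higher in LATS1/2-KO, at 0.89 ± 0.12 (SE, adjusted p = 0.00016).

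The genes that E2F factors switch on were higher almost throughout. Of 20 listed genes of S phase, 19 were higher and 1 did not pass the test in each floxed genotype (95%, beside 28.7% and 29.3% of all genes), with a median log2 fold change of 1.76 in LATS1/2-KO and 1.78 in LATS1/2-Sox9-KO. The largest increases in LATS1/2-KO were those of Rrm2, a subunit of ribonucleotide reductase, at 3.95 ± 0.41 (SE, adjusted p = 3.44e-05), of Tk1, thymidine kinase, at 3.51 ± 0.36 (SE, adjusted p = 3.25e-05), and of Orc1, of the origin recognition complex, at 3.27 ± 0.31 (SE, adjusted p = 2.07e-05). All 12 division markers were higher in both genotypes, with medians of 3.86 and 3.89. Mki67, the Ki-67 antigen, had normalized counts of 409, 896 and 365 in control, 10601, 9148 and 11317 in LATS1/2-KO and 8354, 8568 and 9292 in LATS1/2-Sox9-KO, with no overlap between control and the floxed genotypes. Control replicate 2 was the highest control library for 11 of the 12 division markers (91.7%) and for 17 of the 20 genes of S phase (85%), beside 27.1% of all genes tested. Without that library the value of Rrm2 in LATS1/2-KO was 4.63.

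Of the E2F and DP factors, 7 of 10 were higher in LATS1/2-KO, beside 28.7% of all genes, and 8 were higher and 1 lower in LATS1/2-Sox9-KO, beside 29.3% and 28.7%. In LATS1/2-KO the repressors E2f7, at 3.45 ± 0.40 (SE, adjusted p = 7.06e-05), and E2f8, at 3.22 ± 0.46 (SE, adjusted p = 0.000231), had the largest increases, followed by the activator E2f2 at 2.64 ± 0.29 (SE, adjusted p = 4.74e-05). The order differed in LATS1/2-Sox9-KO against control, with E2f2 at 3.91, E2f7 at 3.52 and E2f8 at 3.07. E2f2 was higher again in LATS1/2-Sox9-KO than in LATS1/2-KO, at 1.28 ± 0.27 (SE, adjusted p = 0.0253), with 2613, 2081 and 1623 against 737, 951 and 919 normalized counts. This call was lost without LATS1/2-KO replicate 3 (1.32, adjusted p = 0.0789), LATS1/2-Sox9-KO replicate 1 (1.12, adjusted p = 0.075) or LATS1/2-Sox9-KO replicate 2 (1.31, adjusted p = 0.0818). Among the E- and A-type cyclins with CDK2 and its activator, 4 of 5 tested genes were higher in both genotypes (80%, beside 28.7% and 29.3% of all genes), and Ccna1 did not pass the filter. In LATS1/2-KO, Ccna2 changed by 4.44 ± 0.30 (SE, adjusted p = 3.71e-06), Ccne1 by 1.84 ± 0.20 (SE, adjusted p = 4.95e-05), Ccne2 by 1.75 ± 0.29 (SE, adjusted p = 0.000586) and Cdc25a by 1.77 ± 0.15 (SE, adjusted p = 9.62e-06), whereas Cdk2 stood at 0.12 ± 0.12 (SE, adjusted p = 0.431) and did not pass the test. Of the 3 genes of the CDK-activating kinase, Cdk7, at 1.35 ± 0.12 (SE, adjusted p = 1.29e-05), and Mnat1, at 1.10 ± 0.14 (SE, adjusted p = 9.54e-05), were higher in LATS1/2-KO (66.7%, beside 28.7% of all genes).

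**Figure D4:**
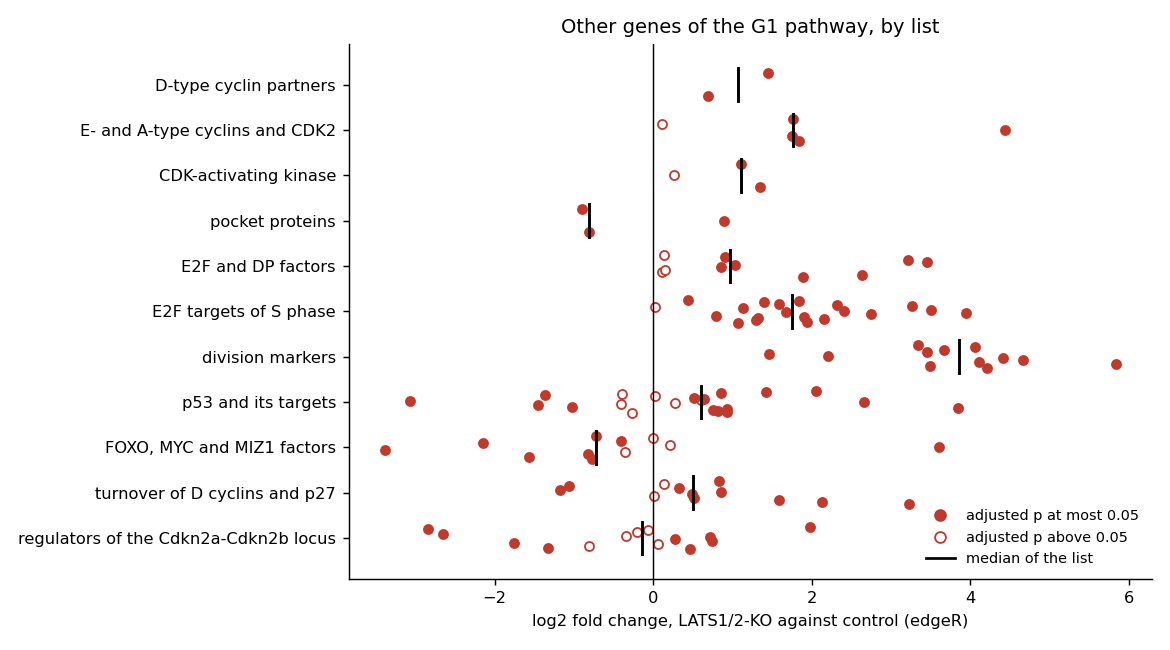
Log2 fold change of LATS1/2-KO against control (horizontal axis) for the genes of 11 lists of the G1 pathway, with filled symbols where the adjusted p was at most 0.05 and a black line at each list's median. The 12 division markers all lie to the right of 0 with a median of 3.86, whereas the p53, FOXO and MYC, and locus regulator lists lie on both sides.

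The p53 list was mixed. Of p53 and 20 of its targets, 11 were higher, 4 lower and 6 did not pass the test in LATS1/2-KO, and 12 were higher and 5 lower in LATS1/2-Sox9-KO. In LATS1/2-KO these were 52.4% higher and 19% lower, beside 28.7% and 27.1% of all genes. In LATS1/2-Sox9-KO they were 57.1% higher and 23.8% lower, beside 29.3% and 28.7%. Trp53 itself had normalized counts of 3693, 4242 and 3292 in control, 4658, 2182 and 2524 in LATS1/2-KO and 5472, 3841 and 3837 in LATS1/2-Sox9-KO and did not pass the test in LATS1/2-KO, at -0.26 ± 0.27 (SE, adjusted p = 0.433). Without LATS1/2-KO replicate 1, the highest library of its genotype, Trp53 was lower than control (-0.66, adjusted p = 0.0139). Among the targets that were higher, Pmaip1, which encodes the cell death protein NOXA, changed by 3.85 ± 0.34 (SE, adjusted p = 1.45e-05) in LATS1/2-KO, Phlda3 by 2.66 ± 0.37 (SE, adjusted p = 0.000206), Perp by 2.06 ± 0.24 (SE, adjusted p = 6.54e-05) and Mdm2, the antagonist of p53 that p19ARF binds, by 0.93 ± 0.21 (SE, adjusted p = 0.00421). Among those that were lower, Trp53inp1 changed by -3.06 ± 0.36 (SE, adjusted p = 6.66e-05), Sesn2 by -1.46 ± 0.27 (SE, adjusted p = 0.00111) and Btg2, an antiproliferative gene, by -1.36 ± 0.13 (SE, adjusted p = 2.56e-05). Within LATS1/2-KO, replicate 1 had the highest value for 17 of the 21 genes, or 81%, against 37.6% of all genes tested, and of the 10 D-type cyclins and inhibitors 5 were highest in that library, or 50%.

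Several factors that act on the inhibitors were lower. Of the FOXO, MYC and MIZ1 factors, 7 of 11 were lower (63.6%, beside 27.1% of all genes) and 1 was higher in LATS1/2-KO (9.09%, beside 28.7%). Foxo3, an activator of Cdkn1b, had normalized counts of 10420.2, 9589 and 8393 in control, 3852, 2341 and 3394 in LATS1/2-KO and 3826, 3138 and 2960.3 in LATS1/2-Sox9-KO, all floxed libraries being below control, and a log2 fold change in LATS1/2-KO of -1.57 ± 0.19 (SE, adjusted p = 7.62e-05). Foxo1 changed by -0.78 ± 0.27 (SE, adjusted p = 0.0309), Mxd1, an antagonist of MYC, by -2.15 ± 0.21 (SE, adjusted p = 2.7e-05) and Mycl by -3.38 ± 0.44 (SE, adjusted p = 0.000138), whereas Myc stood at -0.36 ± 0.29 (SE, adjusted p = 0.324) and did not pass the test. The call for Foxo1 was lost when control replicate 1 or 2 or any LATS1/2-KO library was left out (-0.83 to -0.68, adjusted p from 0.0555 to 0.0887).

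Of 12 genes for the turnover of D-type cyclins and p27, 8 were higher (66.7%, beside 28.7% of all genes) and 2 lower (16.7%, beside 27.1%) in LATS1/2-KO. Skp2, the F-box protein that marks p27 for degradation, had normalized counts of 110.2, 61.2 and 78.4 in control, 755, 779 and 811 in LATS1/2-KO and 467, 718 and 680.4 in LATS1/2-Sox9-KO, and Cks1b, its cofactor, had 735, 784 and 421 in control, 2624, 2912 and 2938 in LATS1/2-KO and 2369, 2803 and 3028 in LATS1/2-Sox9-KO. Neither gene overlapped between control and the floxed genotypes, with log2 fold changes in LATS1/2-KO of 3.23 ± 0.26 (SE, adjusted p = 8.36e-06) and 2.13 ± 0.22 (SE, adjusted p = 3.15e-05), beside a Cdkn1b mRNA that did not pass the test. The 2 lower genes were adaptors for the degradation of D-type cyclins, while the adaptors Fbxo4 and Fbxw8 were among the 8 higher genes. The lower adaptors were Fbxo31 at -1.17 ± 0.27 (SE, adjusted p = 0.00436) and Ambra1 at -1.07 ± 0.15 (SE, adjusted p = 0.000188). Ambra1 was higher in LATS1/2-Sox9-KO than in LATS1/2-KO, at 0.57 ± 0.15 (SE, adjusted p = 0.0472). The call for Fbxo31 was lost with a correction for gene GC content (-0.63, adjusted p = 0.08). The difference of Ambra1 between the floxed genotypes lost its call in 13 of 20 alternative settings, among them the replicate block (0.56, adjusted p = 0.0732), GC correction (0.52, adjusted p = 0.0507), library totals alone (0.46, adjusted p = 0.0633) and 7 of the 9 in which a library was left out (0.42 to 0.65).

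Of 14 known regulators of the Cdkn2a and Cdkn2b locus, 5 were higher, 4 lower and 5 did not pass the test in LATS1/2-KO, and 3 were higher and 7 lower in LATS1/2-Sox9-KO. In LATS1/2-KO these shares, 35.7% higher and 28.6% lower, were near those of all genes tested (28.7% and 27.1%), and in LATS1/2-Sox9-KO they were 21.4% higher and 50% lower, beside 29.3% and 28.7%. Tbx3, a repressor of p19ARF, had normalized counts of 7359, 7073 and 7237 in control, 1131, 910.0 and 1418 in LATS1/2-KO and 1100.0, 806 and 767 in LATS1/2-Sox9-KO and fell by 2.65 on the log2 scale in LATS1/2-KO (adjusted p = 4.86e-06). Ring1, a subunit of Polycomb repressive complex 1, changed by -1.76 ± 0.14 (SE, adjusted p = 7.21e-06). Of the same complex, Cbx7 was also lower, but Bmi1 was higher. The subunits of Polycomb repressive complex 2 Ezh2 and Eed were higher, at 0.75 ± 0.21 (SE, adjusted p = 0.0123) and 0.71 ± 0.09 (SE, adjusted p = 0.000114). Ets2, an activator of p16INK4a, was lower, at -2.84 ± 0.19 (SE, adjusted p = 3.12e-06), and Id1, which opposes that activation, was higher, at 1.98 ± 0.23 (SE, adjusted p = 6.69e-05). With a correction for gene GC content the call for Ezh2 was lost in LATS1/2-KO (0.43, adjusted p = 0.113).

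The libraries labelled LATS1/2-Sox9-KO and LATS1/2-KO were then compared, which differ by the floxed Sox9 gene in their labels. None of the 10 genes passed the edgeR test, while at an unadjusted p under 0.05 Cdkn1a was higher and Cdkn1c lower, and DESeq2 called 1 gene lower, Cdkn1c. The background was 3.13% of all genes higher and 3.33% lower, and the median log2 fold change of the 10 genes was 0.13, against -0.02 for all genes. Cdkn1c was the only one of the 10 whose libraries did not overlap, which held for 14.6% of all genes upwards and 13.3% downwards. It had 579, 498 and 333 normalized counts in LATS1/2-Sox9-KO against 697, 779 and 1165 in LATS1/2-KO, a log2 fold change of -0.90 ± 0.28 (SE, adjusted p = 0.0901) by edgeR and of -0.90 (adjusted p = 0.0222) by DESeq2. The 95% intervals of this comparison were -0.02 to 1.04 for Ccnd1, -0.76 to 1.86 for Ccnd2, -0.16 to 0.64 for Ccnd3 and 0.03 to 1.30 for Cdkn1a. Those of the INK4 genes were -1.34 to 1.36 for Cdkn2a, -0.37 to 1.09 for Cdkn2b and -0.57 to 0.24 for Cdkn2c, and the intervals of Ccnd1, Ccnd2, Cdkn1a, Cdkn2a and Cdkn2b reach past a level 2-fold higher in LATS1/2-Sox9-KO. Those of Cdkn2a and of Cdkn1c (-1.54 to -0.27) reach past a level 2-fold lower.

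For 4 of the 10 genes this outcome rested on 1 library, LATS1/2-KO replicate 1, which had their highest value in its genotype. Leaving it out therefore raises their log2 fold change. LATS1/2-KO replicate 1 differed from replicates 2 and 3 by a root-mean-square log2 difference over all tested genes of 1.01 and 0.99, while the other pairs within a genotype differed by 0.55 to 0.80. Without it, 4 of the 10 genes were higher in LATS1/2-Sox9-KO than in LATS1/2-KO, namely Ccnd2 (log2 fold change 1.93, adjusted p = 0.00332), Cdkn1a (1.12, adjusted p = 0.0121), Cdkn2a (1.31, adjusted p = 0.0465) and Cdkn2b (0.92, adjusted p = 0.0249). The number of all genes called in this comparison rose too, from 605 higher and 644 lower to 1012 and 1032. Against control, leaving out the same library changed none of the calls of the 10 genes in either floxed genotype.

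**Figure D5:**
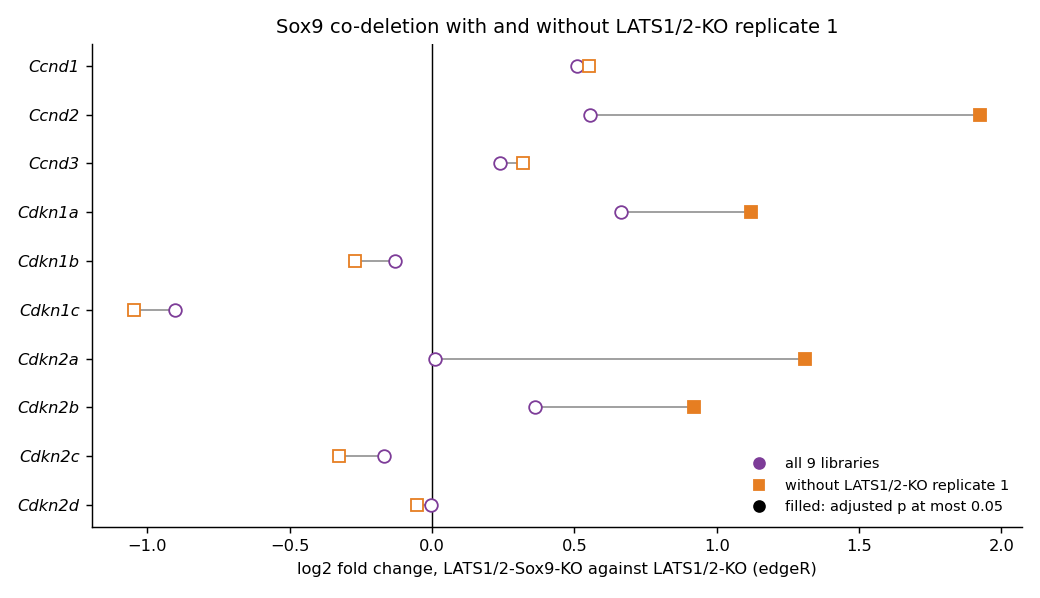
Log2 fold change of LATS1/2-Sox9-KO against LATS1/2-KO (horizontal axis) for the 10 genes, with all 9 libraries (circles) and without LATS1/2-KO replicate 1 (squares), filled where the adjusted p was at most 0.05. Ccnd2, Cdkn1a, Cdkn2a and Cdkn2b move to the right and become filled when that library is left out.

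Markers of other cell types were examined beside these results, and their part in the changes of the 10 genes was not tested. The 12 immune markers summed to 778, 747 and 699 in control, 3575, 2947 and 2077 in LATS1/2-KO and 3436, 3601 and 4484 in LATS1/2-Sox9-KO normalized counts, of which Csf1r was the most abundant, while Cd3e and Ms4a1 were at 0 in all libraries. The 10 endothelial markers, led by Vwf, summed to 6157, 5114 and 6069.8 in control, 1131, 915 and 945 in LATS1/2-KO and 379.7, 990.5 and 1101 in LATS1/2-Sox9-KO. The 9 fibroblast markers, led by Dcn, summed to 2445, 4361 and 9576 in control, 10261, 2704 and 3287 in LATS1/2-KO and 2956, 4128 and 7642 in LATS1/2-Sox9-KO. The differences of the immune and endothelial sums lay in their most abundant gene. Without Csf1r the immune sum was 571, 619 and 560.1 in control, 771, 573 and 324 in LATS1/2-KO and 719, 479 and 609 in LATS1/2-Sox9-KO, and without Vwf the endothelial sum was 590.4, 505 and 848 in control, 868, 844 and 794 in LATS1/2-KO and 317, 875 and 920.0 in LATS1/2-Sox9-KO, and both of these sums overlapped between control and the floxed genotypes. The fibroblast sum overlapped too, but without Dcn it was 819, 1070.5 and 1414 in control, 8941, 2416 and 2126 in LATS1/2-KO and 2928, 4009 and 7317 in LATS1/2-Sox9-KO, with every library of the floxed genotypes above every control library. The 7 adipocyte markers, led by Lipe, summed to 5510.5, 5300.3 and 3703 in control, 735, 4699.8 and 3392 in LATS1/2-KO and 1227, 2105 and 1622 in LATS1/2-Sox9-KO. The 10 basal and myoepithelial markers, led by Krt14, summed to 5509, 6779 and 5821 in control, 271311, 164137 and 158324 in LATS1/2-KO and 160168, 282561 and 387670.0 in LATS1/2-Sox9-KO, and the 11 luminal markers, led by Krt18, to 1120760.0, 1077220.0 and 1250490.0 in control, 1009700.0, 1018640.0 and 1029070.0 in LATS1/2-KO and 1681300.0, 1525970.0 and 1414680.0 in LATS1/2-Sox9-KO. Without Krt14 the basal and myoepithelial sum was 4600.0, 6278 and 5215 in control, 18342, 23886 and 18819 in LATS1/2-KO and 43080.2, 42587 and 37991 in LATS1/2-Sox9-KO, and without Krt18 the luminal sum was 881057, 829740.0 and 992549 in control, 625355, 589928 and 622301 in LATS1/2-KO and 891804, 807445 and 775762 in LATS1/2-Sox9-KO, so that the latter lay below control in all LATS1/2-KO libraries and overlapped control in LATS1/2-Sox9-KO. Of the 10 basal and myoepithelial markers 5 were higher and 3 lower (Myh11, Trp63 and Mylk) in LATS1/2-KO, and 4 were higher and 5 lower in LATS1/2-Sox9-KO. The LATS1/2-KO shares were 50% and 30%, beside 28.7% higher and 27.1% lower of all genes. Those in LATS1/2-Sox9-KO were 40% and 50%, beside 29.3% and 28.7%. Without Lipe the adipocyte sum was 12.8, 14.7 and 17.4 in control, 13, 4097 and 2327 in LATS1/2-KO and 33.4, 1125 and 545 in LATS1/2-Sox9-KO. Of the immune markers 1 of 8 tested genes was higher in LATS1/2-KO (12.5%, beside 28.7% of all genes) and 2 in LATS1/2-Sox9-KO (25%, beside 29.3%), with none lower. For the endothelial markers the counts were 1 higher and 1 lower of 10 in LATS1/2-KO and 1 and 2 in LATS1/2-Sox9-KO, again below the shares of all genes. For the fibroblast markers they were 5 and 1 of 9 in LATS1/2-KO (55.6% and 11.1%) and 4 and 2 in LATS1/2-Sox9-KO (44.4% and 22.2%), and for the adipocyte markers 5 and 1 of 7 (71.4% and 14.3%) and 4 and 1 (57.1% and 14.3%). Within LATS1/2-KO, replicate 1 was the highest library for the fibroblast sum and the lowest for the adipocyte sum, and it was also the highest for Ccnd2, Cdkn1a, Cdkn2a and Cdkn2b.

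The genes whose pattern over the 9 libraries was most like that of Cdkn2a, the gene with the largest rise, were Ccn4, Calcb and Moxd1, with root-mean-square differences of centred log2 normalized counts of 0.50, 0.59 and 0.59. For Ccnd3, the gene that fell, they were Grb2, Afap1 and Spg7, with 0.091, 0.092 and 0.094. Ccn4 had a mean of 4.59 ± 3.97 (SD, n = 3) normalized counts in control, 910 ± 721 in LATS1/2-KO and 764 ± 125 in LATS1/2-Sox9-KO, and Grb2 had 5337 ± 134, 2909 ± 450 and 3341 ± 504.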

How the data were processed

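RNA from sorted EYFP-positive mammary cells was sequenced in 9 libraries, 3 for each genotype in the labels. The authors aligned reads to mm10 with STAR 2.6.0c and deposited raw counts per Ensembl gene from featureCounts (Subread 1.6.2, uniquely aligned proper pairs, mitochondrial genes left out), without normalization or pooling. Library preparation used a TruSeq RNA kit that is not described as marking strand, although the counting is described as same strand. Symbols and coordinates come from GENCODE M21 on GRCm38. In R 4.3.3, edgeR 4.0.16 (filterByExpr, TMM, quasi-likelihood test, all 9 libraries in one fit of 3 group means) gave log2 fold changes, with p-values adjusted by Benjamini-Hochberg over 19357 genes and passed at 0.05. The code was tested on simulated counts. The 10 genes, the pathway and marker lists and the naming rule were chosen with earlier results of these data known. The rule named the 10 genes, fixed cell cycle genes, the 3 targeted genes, up to 3 genes in each direction for each pathway list, the most abundant gene and the genes at 0 of each marker list, and the 3 genes nearest in pattern. The p53 motif search was loosened to 1 mismatch after the sequences were seen. Alternatives were DESeq2 1.42.0, other normalizations and filters, a correction for gene GC content, a fit restricted to the groups compared, a replicate block, each library left out, glmTreat against a 2-fold change, and transcript length for levels per kb. No library duplicated another (chi-square per gene 18.0 to 143 within genotypes). With 44167762 counts or more in each library, counting error was small for the 10 genes, except for Ccnd2, Cdkn2a and Cdkn2b in control (8 to 77 counts in a library), and the 3 libraries of a genotype set the precision. The reads and the deleted exons were not analysed here.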

Additional observations from a re-analysis of the deposited data

How the results depend on the processing

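Of 597 values of the 10 genes under alternative settings, 556 kept their direction and their side of the threshold, 11 lost and 5 gained a call, and 25 changed sign, none of the latter past the threshold in either setting. The changes of sign concern differences near 0. In LATS1/2-KO against control they were Cdkn1b with GC adjustment (-0.30) or the replicate block with GC adjustment (-0.30), Cdkn1b with a library left out (-0.067 to 0.22), Cdkn1a with a library left out (-0.24 to 0.45), and Cdkn2d with GC adjustment (0.25) or the block with it (0.24). In LATS1/2-Sox9-KO against control, Cdkn2d was 0.18 and 0.19 under these settings. In LATS1/2-Sox9-KO against LATS1/2-KO, Cdkn2a was -0.046 with upper-quartile factors, -0.11 with library totals alone and -0.37 to 1.31 with a library left out. There Cdkn1b ranged from -0.27 to 0.028 and Cdkn2d from -0.089 to 0.18 with a library left out, and Cdkn2d was 0.0058 with DESeq2, 0.0047 with RLE factors, 0.0015 without the 100 most counted genes in the factors, 0.027 with no filter and 0.011 with the replicate block. The cause was not tested. Library totals alone shifted the median of all genes to 0.10 in LATS1/2-KO against control and to -0.12 in LATS1/2-Sox9-KO against LATS1/2-KO.

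Counts of calls moved most in LATS1/2-Sox9-KO against LATS1/2-KO. Genes higher were 605 by edgeR, 1172 by DESeq2 and 155 to 1012 with a library left out, and genes lower were 644, 1228 and 94 to 1032. Past 2-fold, 301 higher genes became 509 by DESeq2, 18 by glmTreat and 121 to 497 with a library left out, and 418 lower genes became 750, 14 and 78 to 582. By glmTreat, higher and lower genes past 2-fold were 1962 and 2043 in LATS1/2-KO and 2240 and 2468 in LATS1/2-Sox9-KO against control, from 3314, 3391, 3449 and 3799. Of the 10 genes, 0 to 4 were higher in LATS1/2-Sox9-KO than in LATS1/2-KO with a library left out and 1 was lower by DESeq2, and Ccnd3 was no longer called in LATS1/2-Sox9-KO against control with GC adjustment or the block with it (0 lower), and with a library left out 0 to 1 were lower. With at least 10 counts in every library Cdkn2a could not be tested.

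The replicate numbers did not pair the samples consistently over the 3 genotypes. Deviations of libraries with the same number correlated at -0.066 to 0.170 between genotypes, and not every library correlated best with its own number. Between the floxed genotypes the correlations were 0.105 for replicate 1, 0.170 for replicate 2 and -0.032 for replicate 3. With the number as a block, the calls of the 10 genes were the same in all 3 comparisons, and the genes called were 5302 higher and 5082 lower in LATS1/2-KO against control, 5550 and 5351 in LATS1/2-Sox9-KO against control, and 472 and 503 in LATS1/2-Sox9-KO against LATS1/2-KO.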

Other observations

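Adipocyte genes divided the libraries of the floxed genotypes in a way that the genotype did not. Cfd, which encodes the adipokine adipsin, had normalized counts of 0, 0 and 0 in control, 0, 3093 and 1780.3 in LATS1/2-KO and 0.928, 861 and 359.8 in LATS1/2-Sox9-KO, and Adipoq, which encodes adiponectin, had 0, 0 and 3.73 in control, 2.01, 294 and 163 in LATS1/2-KO and 0.928, 97.7 and 42.8 in LATS1/2-Sox9-KO. Both were near 0 in replicate 1 of both floxed genotypes and present in replicates 2 and 3, and these genes were chosen after their values were seen. Of the D-type cyclins and inhibitors, Cdkn1a, Cdkn2a, Ccnd2 and Cdkn2b were highest in replicate 1 of LATS1/2-KO and lowest in replicate 1 of LATS1/2-Sox9-KO, and the relation of these values to the adipocyte genes was not tested. In control, replicate 3 had the highest value for 16 of the 21 genes of the p53 list, against 39.4% of all genes tested, and the lowest Ccnd1 and the highest Cdkn1a of its genotype.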
